A study of Mus musculus with 4 samples.

Results

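The dual-specificity MAP kinase phosphatases were followed in mouse peritoneal macrophages as 9 of the 54532 genes in a table of read counts. The members Dusp1, Dusp2, Dusp3, Dusp4, Dusp5, Dusp6, Dusp7, Dusp10 and Dusp16 were read from the table by gene name. RNA from 4 cultures of wild-type macrophages was sequenced: a vehicle control (normal medium, DMSO), a culture with the inhibitor alone (normal medium, 10 µM CH223191), a culture with 4T1-CM alone (30% 4T1-CM, DMSO) and a culture with 4T1-CM plus inhibitor (30% 4T1-CM, 10 µM CH223191). 4T1-CM is medium that 4T1 cells, a mouse mammary carcinoma line, have conditioned, and CH223191 is an antagonist of the aryl hydrocarbon receptor (AHR), so the design asks how tumor-derived medium and AHR inhibition bear on gene expression. The study's methods describe thioglycollate-elicited cells of BALB/c mice for this kind of culture, and all groups share that origin. The labels do not say how many mice gave the cells of a culture or how long it was treated.

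MAP kinases (ERK, JNK and p38) are switched on when a threonine and a tyrosine in their activation loop are phosphorylated, and dual-specificity phosphatases remove both phosphates. In the larger members a docking domain binds the kinase, a catalytic domain with an essential cysteine removes the phosphate, and many of the genes are themselves induced by MAP kinase signaling as feedback. In macrophages these enzymes are best known for limiting the signaling and cytokine output that follow microbial stimuli.

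Every condition rests on 1 library, which leaves the variation among cultures unmeasured and no difference with a replicate check. Libraries held 15535405 to 17557127 counted reads, and 13715 genes reached 10 reads in 1 or more libraries and were kept, all 9 members among them. Levels are given as reads, as CPM (reads scaled to library size, with TMM factors) or as RPKM (CPM per kilobase of gene length). Log2 ratios of 4T1-CM to normal medium set 4T1-CM alone against the vehicle control (without the inhibitor) and 4T1-CM plus inhibitor against the inhibitor alone (with the inhibitor). Intervals are 95% intervals for counting error only: reads copied by PCR are not independent molecules, and the intervals compare libraries, not conditions. Macrophage markers summed to between 14028 and 40034 CPM per library, most of it Lyz2, and all 3 T cell markers were at 0. Markers of B cells, neutrophils, epithelial cells, mesothelial cells, eosinophils and mast cells summed to at most 1.07 CPM per list. The 6 fibroblast markers, none of them at 0 in all libraries, summed to 63.0 CPM in the vehicle control, 30.1 with the inhibitor alone, 149 with 4T1-CM alone and 127 with 4T1-CM plus inhibitor. The sum was higher in 4T1-CM, as several phosphatases were, through Col1a1, Col1a2, Col3a1 and Dcn, while Pdgfra was at 5.71, 3.08, 4.74 and 4.31 CPM in the same order and Lum had at most 3 reads. The part of these markers in the results was not tested. In bulk RNA, fewer cells of a type and less RNA per cell cannot be told apart.

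The active site is what the 9 genes have in common, and its coding sequence shows how closely they are related. The signature with the catalytic cysteine and arginine was found once in the reading frame of each gene, in the transcript with the longest coding sequence of the GENCODE M21 annotation of GRCm38. Written 5′ to 3′ on the coding strand, 27 bases each, with the cysteine codon and the arginine codon in capitals, the sequences were as follows.
Dusp1: catTGCcaggccggcatctccCGGtca
Dusp2: cacTGCcaagctggcatctctCGCtca
Dusp4: cacTGCcaggccggcatctccCGAtca
Dusp5: cacTGCgaagctggggtttccCGGtcg
Dusp6: catTGCttggcaggtatcagcCGCtct
Dusp7: cacTGCctagcaggcatcagcCGTtca
Dusp10: cacTGCcaggccggcgtgtccCGAtcc
Dusp16: cacTGCttagctgggatctctCGCtcc
Dusp3: catTGCcgcgagggctacagcCGCtcc

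All 9 use the cysteine codon TGC, while the arginine codon varies between CGA, CGC, CGG and CGT. Dusp1 and Dusp4 were the closest pair, with the same base at 25 of 27 positions, and Dusp4 and Dusp10 shared 24. The ERK-directed pair Dusp6 and Dusp7 shared 21 positions, and the lowest value was that of Dusp3 and Dusp5, at 13. The site lies in the last exon of 8 genes and in exon 6 of 7 in Dusp16. For the genes whose levels moved most, it is at chr8:34818433-34818459 on the plus strand for Dusp4, at chr2:127337616-127337642 on the plus strand for Dusp2 and at chr1:184074293-184074319 on the plus strand for Dusp10. The cysteine codon is codon 284 of 398 in Dusp4, codon 261 of 318 in Dusp2 and codon 409 of 483 in Dusp10. Dusp3 has the shortest reading frame, with 210 codons, and Dusp16 the longest, with 660. In Dusp1, Dusp2, Dusp4, Dusp6, Dusp7, Dusp10 and Dusp16, 0% of the 50-base words of their transcripts occurred in another gene. In Dusp3 that share was 11.2%, spread over several genes. In Dusp5 it was 20.5%, all in a gene annotated on the opposite strand, so counts of Dusp5 are uncertain where the counting ignored strand.

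Sequence upstream of the start sites was read for the same genes because the cultures were treated with an antagonist of AHR, a transcription factor. RefSeq windows of GRCm38.p6 were at hand for 8 of the 9 genes, Dusp4 being the exception, and the 250 bases before the listed start were searched on both strands. Motifs were the AHR core GCGTG, the cAMP response element TGACGTCA, the E-box CACGTG, the AP-1 element TGANTCA, the STAT element TTCNNNGAA, the CArG box bound by serum response factor, and the NF-kB element. Shown are the windows of Dusp1, Dusp2 and Dusp5, the inducible members with a match, on the strand of the gene up to the first annotated exon base, with matches in capitals. They lie at chr17:26508520-26508722 on the minus strand for Dusp1, at chr2:127335909-127336158 on the plus strand for Dusp2 and at chr19:53528895-53529108 on the plus strand for Dusp5.
Dusp1: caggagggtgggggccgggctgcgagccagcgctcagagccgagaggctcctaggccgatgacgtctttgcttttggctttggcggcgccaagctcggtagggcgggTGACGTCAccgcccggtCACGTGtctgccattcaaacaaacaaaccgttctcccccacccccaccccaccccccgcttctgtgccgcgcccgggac
Dusp2: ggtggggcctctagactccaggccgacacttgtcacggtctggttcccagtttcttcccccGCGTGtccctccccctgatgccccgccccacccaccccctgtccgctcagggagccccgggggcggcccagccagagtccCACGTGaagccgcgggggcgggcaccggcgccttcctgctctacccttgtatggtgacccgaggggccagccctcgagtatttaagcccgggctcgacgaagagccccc
Dusp5: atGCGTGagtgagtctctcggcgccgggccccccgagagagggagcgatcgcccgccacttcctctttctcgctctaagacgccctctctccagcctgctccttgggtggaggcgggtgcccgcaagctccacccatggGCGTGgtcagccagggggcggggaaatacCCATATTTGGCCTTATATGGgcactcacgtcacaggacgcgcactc

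In the Dusp1 window, the cAMP response element lay 143 to 136 bases before the start and an E-box 126 to 121 bases before it. The Dusp2 window held the AHR core at 189 to 185 bases and an E-box at 109 to 104 bases before the start. Dusp5 had 2 AHR cores and a pair of adjacent CArG boxes between 82 and 63 bases before the start. The AHR core was found in 4 of the 8 windows (Dusp2, Dusp3, Dusp5 and Dusp7), beside 28.2% of 32851 mouse promoters. The cAMP response element was in 1 window, beside 1.55% of promoters, the E-box in 2, beside 6.02%, and the CArG box in 1, beside 1.47%. No window held the AP-1, STAT or NF-kB element, which 6.75%, 7.02% and 3.90% of promoters contain. A match describes letters only, and the listed start of Dusp10 lies 21079 bases inside the deposited gene and that of Dusp3 2222 bases inside. Those of Dusp1 and Dusp5 lie 47 and 36 bases inside. Their printed sequences therefore end before the start from which the distances are counted. The GENCODE M21 model of Dusp1 reaches farther upstream, to position 26562128 of chr17. Other start sites were not searched.

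Together the 9 genes took 9906 reads in the vehicle control, 9260 with the inhibitor alone, 12738 with 4T1-CM alone and 11590 with 4T1-CM plus inhibitor. Their summed level was 621, 582, 728 and 713 CPM in that order, and it was higher in both 4T1-CM libraries than in both normal medium libraries. The members did not move as a block: some were several-fold higher in 4T1-CM, 1 was more than 4-fold lower, and others stayed close to their level in normal medium.

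**Figure D1:**
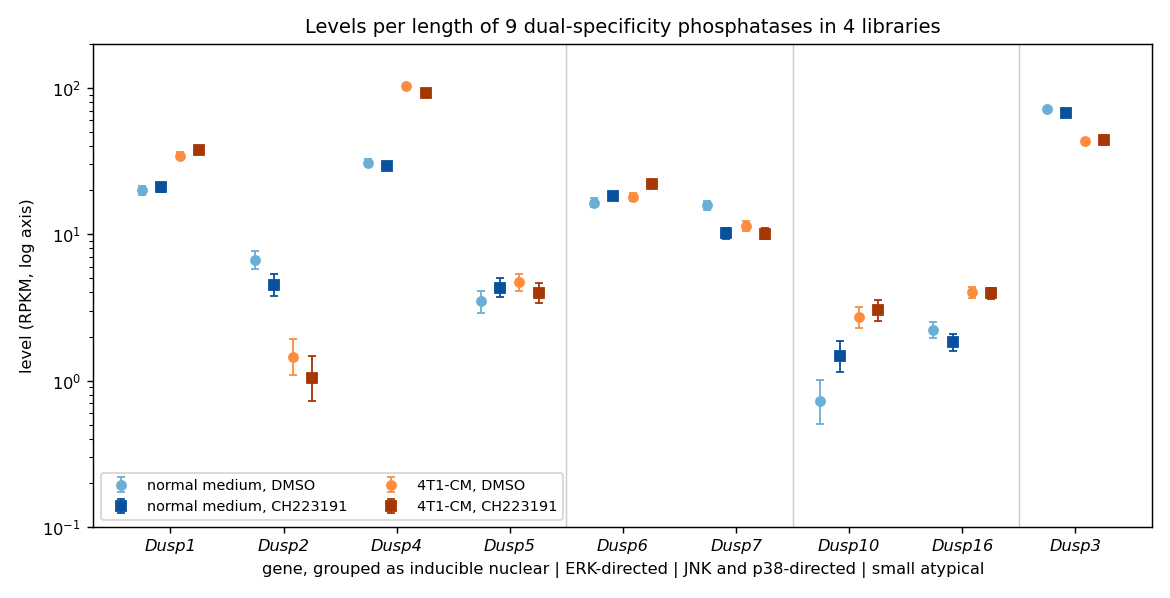
Level of each phosphatase gene in RPKM (log axis) in the 4 libraries, with circles for DMSO, squares for CH223191, blue for normal medium and orange or brown for 4T1-CM; bars are 95% Poisson intervals and cover counting error only. Dusp4 was at 31.0 and 29.5 RPKM in normal medium and at 104 and 92.0 in 4T1-CM, while Dusp3 and Dusp2 were lower in 4T1-CM.

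The inducible nuclear phosphatases Dusp1, Dusp2, Dusp4 and Dusp5 are transcribed early after stimulation and act on MAP kinases in the nucleus. The treatment time of these cultures is not known, so their values cannot be read as early induction. Dusp4 (ENSMUSG00000031530, chr8:34807297-34819894, plus strand), a phosphatase of ERK and JNK, had 1352 reads in the vehicle control, 1285 with the inhibitor alone, 4971 with 4T1-CM alone and 4094 with 4T1-CM plus inhibitor. Both 4T1-CM libraries stood far above both normal medium libraries. The level of Dusp4 was 3.35-fold higher in 4T1-CM without the inhibitor (log2 ratio 1.74, interval 1.66 to 1.83) and 3.12-fold higher with the inhibitor (1.64, 1.55 to 1.73). Of all genes kept, 6.04% and 6.15% had a log2 ratio at least as high in these comparisons. Its log2 ratio of CH223191 to vehicle was -0.07 (-0.18 to 0.04) without 4T1-CM and -0.17 (-0.23 to -0.11) with it, much smaller than the difference between media.

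Dusp1 (ENSMUSG00000024190, chr17:26505590-26508519, minus strand) encodes MKP-1, the phosphatase best known for shutting off p38 and JNK in stimulated macrophages. It had 857 reads in the vehicle control, 896 with the inhibitor alone, 1630 with 4T1-CM alone and 1659 with 4T1-CM plus inhibitor. Here too both 4T1-CM libraries were above both normal medium libraries, by less than 2-fold. The log2 ratio was 0.79 (0.67 to 0.91) without the inhibitor and 0.86 (0.74 to 0.98) with the inhibitor. The GENCODE M21 model of Dusp1 is longer than the deposited one and runs over Ergic1, on the opposite strand. Ergic1 had 1806, 2311, 2069 and 1879 reads in the same order, and the part of overlapping genes in the Dusp1 counts was not tested.

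Dusp2 (ENSMUSG00000027368, chr2:127336159-127338376, plus strand), or PAC-1, a phosphatase of activated immune cells, went the other way. It had 213 reads in the vehicle control, 144 with the inhibitor alone, 51 with 4T1-CM alone and 34 with 4T1-CM plus inhibitor. Both normal medium libraries were above both 4T1-CM libraries, and in each medium the CH223191 library was the lower. In 4T1-CM its level was 4.55-fold lower without the inhibitor (log2 ratio -2.19, -2.67 to -1.75) and 4.28-fold lower with the inhibitor (-2.10, -2.70 to -1.57). Only 1.02% and 1.44% of genes had a ratio at least as low, which placed Dusp2 farther into its tail than any other member. CH223191 against vehicle gave a log2 ratio of -0.56 (-0.88 to -0.25) without 4T1-CM and -0.47 (-1.15 to 0.18) with it, and the interval of the latter held 0 at this depth.

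Dusp5 (ENSMUSG00000034765, chr19:53529109-53542431, plus strand), which binds and inactivates ERK in the nucleus, was low throughout. It had 137 reads in the vehicle control, 170 with the inhibitor alone, 203 with 4T1-CM alone and 159 with 4T1-CM plus inhibitor, with no clear split by medium or by inhibitor. Its log2 ratio of 4T1-CM to normal medium was 0.43 (0.11 to 0.76) without the inhibitor and -0.13 (-0.45 to 0.19) with the inhibitor. The difference between these responses, with the inhibitor minus without the inhibitor, was -0.56 (-0.998 to -0.116), and 23.9% of genes had a difference at least as far from 0.

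The ERK-directed phosphatases of the cytoplasm, Dusp6 and Dusp7, stayed within 2-fold in all 4 comparisons. Dusp6 (ENSMUSG00000019960, chr10:99263231-99267489, plus strand), or MKP-3, a feedback target of ERK signaling, had 819 reads in the vehicle control, 914 with the inhibitor alone, 989 with 4T1-CM alone and 1114 with 4T1-CM plus inhibitor. In CPM, the levels were 51.4, 57.5, 56.5 and 68.6, so the CH223191 library was the higher in each medium. Its log2 ratio of CH223191 to vehicle was 0.16 (0.02 to 0.30) without 4T1-CM and 0.28 (0.15 to 0.40) with it, and 32.5% and 14.7% of genes were at least as high. For 4T1-CM against normal medium the log2 ratio was 0.14 (0.00 to 0.27) without the inhibitor and 0.25 (0.13 to 0.38) with the inhibitor.

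Dusp7 (ENSMUSG00000053716, chr9:106368632-106375724, plus strand), or MKP-X, had 844 reads in the vehicle control, 541 with the inhibitor alone, 669 with 4T1-CM alone and 550 with 4T1-CM plus inhibitor. The vehicle control stood above the other three, which spanned 33.9 to 38.2 CPM against 52.9 CPM. CH223191 gave a log2 ratio of -0.64 (-0.80 to -0.48) in normal medium, where 6.59% of genes were at least as low, and -0.17 (-0.34 to -0.01) in 4T1-CM. The log2 ratio of 4T1-CM was -0.47 (-0.62 to -0.32) without the inhibitor and -0.01 (-0.18 to 0.17) with the inhibitor, a difference of 0.46 (0.24 to 0.69), and 29.6% of genes differed by at least as much. The vehicle control enters both of the larger Dusp7 ratios.

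The phosphatases directed at JNK and p38, Dusp10 and Dusp16, were both higher in 4T1-CM. Dusp10 (ENSMUSG00000039384, chr1:184013302-184075636, plus strand), or MKP-5, had the fewest reads of the members in the vehicle control, 35, and 71 with the inhibitor alone, 145 with 4T1-CM alone and 149 with 4T1-CM plus inhibitor. The vehicle control was lowest, the inhibitor alone lay between, and both 4T1-CM libraries were highest and close to each other. In 4T1-CM the level was 3.73-fold higher without the inhibitor (log2 ratio 1.90, 1.37 to 2.49) and 2.05-fold higher with the inhibitor (1.03, 0.62 to 1.47). CH223191 gave a 2.02-fold higher level in normal medium (1.01, 0.42 to 1.65), where 4.80% of genes were at least as high, and a log2 ratio of 0.15 (-0.19 to 0.49) in 4T1-CM. The response to 4T1-CM with the inhibitor minus that without the inhibitor was -0.87 (-1.53 to -0.20), and 13.4% of genes had a difference at least as large. The vehicle control, with 35 reads, enters the Dusp10 log2 ratios of 1.90 and 1.01 and this difference.

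Dusp16 (ENSMUSG00000030203, chr6:134715468-134792625, minus strand), or MKP-7, a JNK phosphatase that shuttles between nucleus and cytoplasm, had 276 reads in the vehicle control, 227 with the inhibitor alone, 547 with 4T1-CM alone and 502 with 4T1-CM plus inhibitor. Both 4T1-CM libraries lay above both normal medium libraries. The log2 ratio of 4T1-CM to normal medium was 0.85 (0.64 to 1.07) without the inhibitor and 1.11 (0.89 to 1.35) with the inhibitor, on either side of 2-fold, and their difference of 0.26 had an interval of -0.05 to 0.57. Genes that overlap Dusp10 or Dusp16 on the opposite strand had at most 5 reads in any library.

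Dusp3 (ENSMUSG00000003518, chr11:101971143-101987013, minus strand) encodes VHR, a small phosphatase of ERK and JNK that lacks the docking domain of the other members. It was the most abundant member by reads in normal medium, with 5373 reads without the inhibitor and 5012 with the inhibitor, and it had 3533 reads with 4T1-CM alone and 3329 with 4T1-CM plus inhibitor. Both 4T1-CM libraries were lower, with a log2 ratio of -0.74 (-0.80 to -0.68) without the inhibitor and -0.62 (-0.68 to -0.56) with the inhibitor. At this depth the intervals are narrow, yet 10.8% and 16.3% of genes were at least as low.

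Counted over all members, Dusp4 and Dusp10 were at least 2-fold higher with 4T1-CM alone, that is 2 of 9 beside 12.2% of all genes, and Dusp2 was at least 2-fold lower, 1 of 9 beside 6.12%. With the inhibitor, Dusp4, Dusp10 and Dusp16 were at least 2-fold higher, 3 of 9 beside 12%, and Dusp2 was lower, 1 of 9 beside 7.86%. In both comparisons, which share no library, Dusp4 and Dusp10 were higher, 2 of 9 beside 8.18%, and Dusp2 was lower, 1 of 9 beside 3.38%. With a prior count of 5 in place of 0.5, Dusp10 no longer reached 2-fold in both, which left Dusp4. For CH223191 in normal medium, Dusp10 was at least 2-fold higher, 1 of 9 beside 4.84%, and 0 members were lower, beside 3.31%. Dusp10 was under 2-fold here with total counts and with a prior count of 5, which leaves 0 members higher. In 4T1-CM, 0 members were 2-fold higher or lower with the inhibitor, beside 2.8% and 2.62% of genes, and 0 changed that far in both media, beside 0.678% and 0.481%. The median log2 ratio of the members was 0.43 for 4T1-CM without the inhibitor and 0.25 with the inhibitor, and -0.07 and -0.02 for CH223191 in the respective media, with the medians of all genes between 0.00 and 0.02. With so few members, these counts are read as a description beside the background shares.

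**Figure D2:**
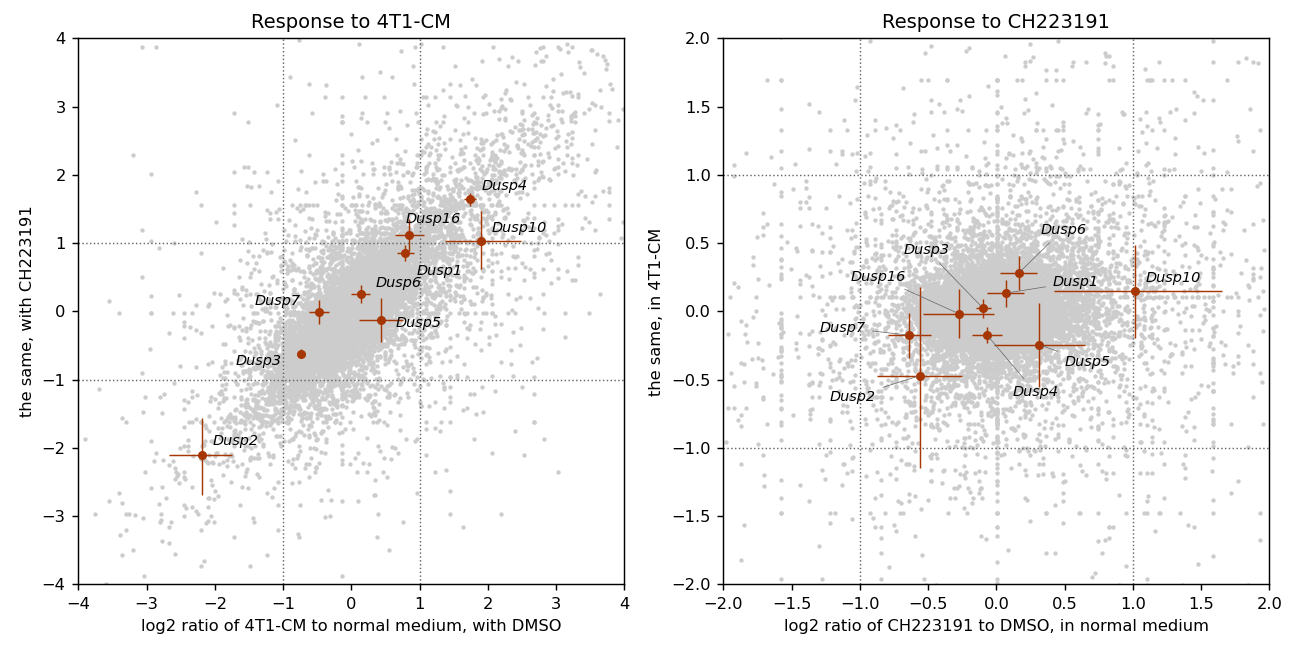
Log2 ratios of 4T1-CM to normal medium in cultures given CH223191 against the same in cultures given DMSO (left) and of CH223191 to vehicle in 4T1-CM against the same in normal medium (right); grey points are genes kept, those beyond the axes not drawn, brown points are the 9 members with 95% counting intervals, and dotted lines mark 2-fold. Dusp4 and Dusp10 lie above 2-fold and Dusp2 below it on both axes of the left panel, and only Dusp10 in normal medium reaches 2-fold in the right panel.

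An additive model over all 4 libraries leaves 1 residual degree of freedom. It takes the departure from additivity between single cultures as the error, so its p-values rest on the assumption that medium and inhibitor do not interact. By counting error alone, the responses to 4T1-CM without and with the inhibitor differed for Dusp3, Dusp5, Dusp7 and Dusp10. For these members the assumption is in doubt. In this quasi-likelihood fit of edgeR with Benjamini-Hochberg adjustment over all genes, Dusp1, Dusp4, Dusp10 and Dusp16 were called higher in 4T1-CM, 4 of 9 beside 16.4% of genes, and Dusp2 and Dusp3 lower, 2 of 9 beside 16.2%. The adjusted p of edgeR was 4.88e-06 for Dusp4, whose log2 change was 1.69, and 3.71e-05 for Dusp2, whose log2 change was -2.16. Dusp10 had a log2 change of 1.43 and Dusp16 one of 0.98, with edgeR adjusted p of 0.00172 and 0.000665. For Dusp1 the log2 change was 0.83 and for Dusp3 -0.68, with edgeR adjusted p of 0.000538 and 0.00224. Dusp5, Dusp6 and Dusp7 did not pass, with edgeR adjusted p of 0.587, 0.246 and 0.222. For CH223191, 0 members were called higher or lower, beside 0.0729% and 0.00729% of genes, with edgeR adjusted p from 0.731 to 0.983, although Dusp2 and Dusp7 had an unadjusted p under 0.05. Over all genes the same fit called 10 genes higher and 1 lower with the inhibitor, and 880 had an unadjusted p under 0.05.

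By level per length, Dusp3 and Dusp4 changed places between the media and Dusp2 was last in 4T1-CM, while Dusp1, Dusp6 and Dusp7 kept their ranks. In normal medium the order of RPKM was Dusp3, Dusp4, Dusp1, Dusp6, Dusp7, Dusp2, Dusp5, Dusp16 and Dusp10, without and with the inhibitor alike. With 4T1-CM alone it was Dusp4, Dusp3, Dusp1, Dusp6, Dusp7, Dusp5, Dusp16, Dusp10 and Dusp2, and with 4T1-CM plus inhibitor Dusp16 and Dusp5 changed places. The level of Dusp3 was 2.33 and 2.28 times that of Dusp4 in the vehicle control and with the inhibitor alone. In 4T1-CM the level of Dusp4 was instead 2.40 and 2.10 times that of Dusp3.

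As shares of the summed RPKM, Dusp3 made up 42.8% in the vehicle control and 42.5% with the inhibitor alone, and 19.3% and 20.1% in 4T1-CM. Dusp4 made up 18.4% and 18.6% in normal medium, and 46.4% and 42.3% in 4T1-CM. The sum itself was 168 and 158 RPKM in normal medium and 224 and 218 in 4T1-CM. Dusp2 stood above Dusp5 in normal medium and last in 4T1-CM, at 6.67 and 4.52 RPKM in normal medium and 1.45 and 1.04 in 4T1-CM. Some neighbours in the order were not separated by their counting intervals. These were Dusp6 and Dusp7 in the vehicle control, Dusp1 and Dusp6, Dusp2 and Dusp5, and Dusp16 and Dusp10 with the inhibitor alone, Dusp5 and Dusp16 in both 4T1-CM libraries, and Dusp5 and Dusp10 with 4T1-CM plus inhibitor. With the length of the reference transcript in place of the deposited gene length, Dusp1 and Dusp3 were level at 46.8 RPKM with 4T1-CM alone, and Dusp1 stood above Dusp3 with 4T1-CM plus inhibitor, at 51.3 against 47.5 RPKM. Dusp16 then stood above Dusp5 with 4T1-CM alone, at 6.12 against 4.69 RPKM, and with 4T1-CM plus inhibitor, at 6.05 against 3.96 RPKM.

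**Figure D3:**
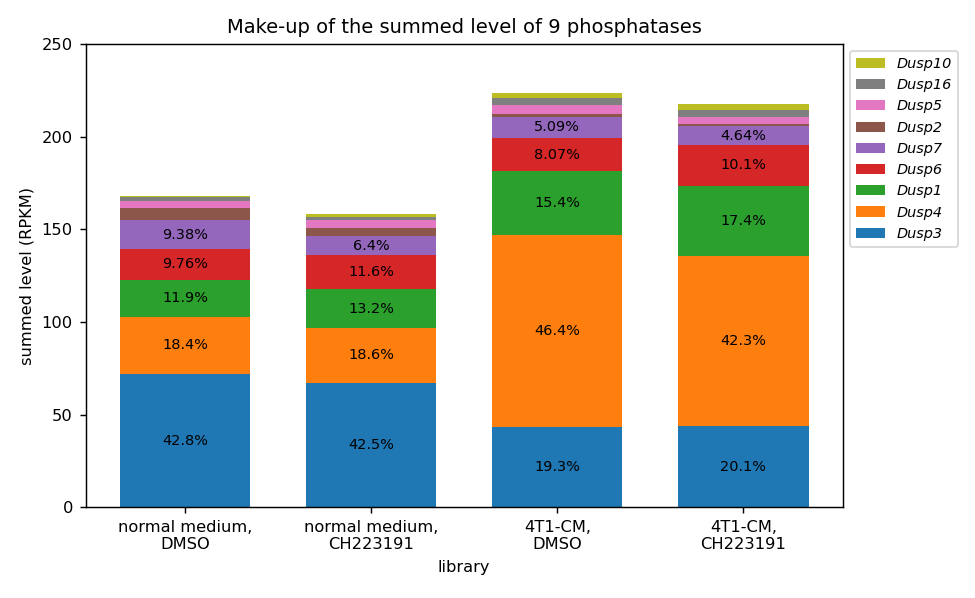
Summed level of the 9 phosphatase genes in RPKM in each library, stacked by gene, with the share of the sum printed where it is over 4%. Dusp3 holds 42.8% and 42.5% of the bar in normal medium, and Dusp4 holds 46.4% and 42.3% in 4T1-CM.

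Genes with a pattern like those of the 3 members with the widest range over the libraries were sought among genes averaging 10 CPM or more, by the root mean square difference of centred log2 CPM over the 4 libraries. The range of log2 CPM was 2.66 for Dusp2, 2.05 for Dusp10 and 1.81 for Dusp4. Nearest to Dusp4 were Slfn2 (difference 0.05), Slc31a2 (0.06), a copper transporter, and Ehd1 (0.06), an endocytic recycling protein. Slfn2 had 94.8 CPM in the vehicle control, 97.7 with the inhibitor alone, 323 with 4T1-CM alone and 299 with 4T1-CM plus inhibitor. Within a difference of 0.2 lay 99 of 8322 genes.

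Dusp10 and Dusp2 have fewer reads than Dusp4. Nearest to Dusp10 were Chchd10 (0.09), a mitochondrial protein, Rab20 (0.10), a GTPase of phagosomes, and Hilpda (0.13), a lipid droplet protein known as a hypoxia-inducible gene, and 11 of 8323 genes lay within 0.2. Rab20 had 9.91 CPM in the vehicle control, 19.6 with the inhibitor alone, 31.4 with 4T1-CM alone and 36.5 with 4T1-CM plus inhibitor. Like Dusp10, it was lowest in the vehicle control, intermediate with the inhibitor alone and highest in 4T1-CM. Nearest to Dusp2 were Mamdc2 (0.11), Ankrd13b (0.15) and Kcnj2 (0.18), an inward rectifier potassium channel, the only 3 of 8323 genes within 0.2. Mamdc2 had 344 CPM in the vehicle control, 274 with the inhibitor alone, 74.5 with 4T1-CM alone and 61.5 with 4T1-CM plus inhibitor. These likenesses rest on 4 libraries each. Dusp10 had 35 reads in the vehicle control and Dusp2 had 34 with 4T1-CM plus inhibitor. Counting error blurs their patterns more than that of Dusp4, so the numbers of genes within 0.2 are not compared between members.

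Other genes, around the MAP kinases or tied to the control of Dusp1, gave a setting for the members. The remaining typical phosphatases of the family, Dusp8 and Dusp9, were low: Dusp8 had 63, 54, 99 and 96 reads in the order vehicle control, inhibitor alone, 4T1-CM alone and 4T1-CM plus inhibitor. Dusp9 had 109, 94, 75 and 72 reads in that order, and neither gene changed 2-fold in any comparison. Of 12 atypical dual-specificity phosphatases, 9 were kept and 1, Dusp14, was at least 2-fold higher in both 4T1-CM comparisons, on 10, 4, 26 and 18 reads. Dusp11, an RNA phosphatase, was the most abundant of that list, with log2 ratios of 4T1-CM to normal medium of 0.33 without the inhibitor and 0.47 with the inhibitor, and Dusp22 had -0.44 and -0.16. Of 8 other phosphatases that act on MAP kinases, 6 were kept and 0 changed 2-fold in both comparisons, with medians of -0.36 and 0.01. Ppp2ca, a catalytic subunit of PP2A, had log2 ratios of 0.16 and -0.01, and Ptpn7, a leukocyte tyrosine phosphatase, -0.40 and -0.84.

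Most of the kinases that the phosphatases act on, and those above them, stayed within 2-fold. Of 10 MAP kinases 8 were kept, and 1, Mapk11, was past 2-fold in both 4T1-CM comparisons, on 5, 3, 28 and 19 reads, too few to give a fold. Mapk3 (ERK1) had log2 ratios of 4T1-CM to normal medium of -0.19 without the inhibitor and -0.24 with the inhibitor. Among 7 MAP kinase kinases and 13 MAP kinase kinase kinases, 0 changed 2-fold in either comparison. Map2k1 (MEK1) had log2 ratios of 0.28 and 0.30, Map2k2 (MEK2) of -0.38 and -0.52, Map3k3 of -0.03 and 0.05, and Map3k11 of -0.36 and -0.68. The median log2 ratio without and with the inhibitor was 0.16 and 0.25 for the MAP kinases (Mapk12, at 0 reads in the vehicle control, lies above the former also when set to the limit of 3 reads), -0.30 and -0.45 for the MAP kinase kinases, and 0.18 and 0.48 for the kinases above them. Of 10 kinases activated by MAP kinases, 0 changed 2-fold the same way in both comparisons, with medians of -0.34 and -0.30. In a single comparison 2 of them did: Mapkapk5, on 122, 50, 23 and 29 reads, had a log2 ratio of -2.52 without the inhibitor and -0.81 with it, and Rps6ka5 had 0.49 and 1.34. Mapkapk2, the p38-activated kinase that stabilises cytokine mRNA, had log2 ratios of 0.22 and 0.34, and Mknk2 of -0.24 and -0.36.

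Of 14 immediate-early and ERK-induced genes 11 were kept. In both 4T1-CM comparisons Ier3 and Fosl1 were at least 2-fold higher, 2 of 11 beside 8.18% of all genes. The transcription factors Egr2 and Etv5 were at least 2-fold lower, 2 of 11 beside 3.38%. The same shares stand beside the counts of the other lists in both comparisons. In a single comparison Ier5, with log2 ratios of -1.49 without the inhibitor and -0.85 with it, and Myc, with -0.86 and -1.18, were also 2-fold lower. Ier3, an early response gene, had 33, 36, 683 and 611 reads in the order vehicle control, inhibitor alone, 4T1-CM alone and 4T1-CM plus inhibitor, and log2 ratios of 4.22 and 4.04. Fosl1, an AP-1 subunit, had log2 ratios of 1.43 and 1.21. Egr2 had 2731, 2819, 1144 and 1098 reads, with a log2 ratio of -1.39 in both comparisons, and Etv5 had -1.06 and -1.03. The medians of the list were -0.22 and -0.41.

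Of 7 Sprouty and Spred genes, whose products inhibit ERK signaling, 5 were kept and 2 were higher in both 4T1-CM comparisons. Spred3 had 17, 8, 124 and 106 reads in the same order and Spry3 had 7, 8, 55 and 33, with log2 ratios of 2.70 and 3.62 for Spred3 and of 2.75 and 1.95 for Spry3. The medians of that list were 0.35 and 0.22. Of 6 AU-rich element binding proteins, which control mRNAs such as that of Dusp1, Zfp36l1 was at least 2-fold higher in both comparisons, with log2 ratios of 1.65 and 2.22. Zfp36l2, the most abundant of that list, was lower, with -0.97 and -0.38, and the medians were 0.05 and 0.16. Of 9 genes induced by glucocorticoids, as Dusp1 is, 8 were kept and 2 were higher in both comparisons, with medians of 0.59 and 0.31. Those were Sgk1, a kinase, with log2 ratios of 2.18 and 2.36, and Nfkbia, the NF-kB inhibitor, which NF-kB induces as well, with 2.19 and 2.20. Fkbp5, Per1 and Errfi1 had log2 ratios above 0 and within 2-fold in both comparisons. Klf9 was lower in both, with -0.94 and -0.61, as was Tsc22d3, with -0.49 and -0.16, and Cebpd had -0.45 and 0.01. The medians of all genes were 0.01 and 0.02 in these comparisons. For CH223191, 0 genes of any of these lists changed 2-fold the same way in both media, beside 0.678% of all genes higher and 0.481% lower. At such shares, lists of this size would hold few such genes or none.

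**Figure D4:**
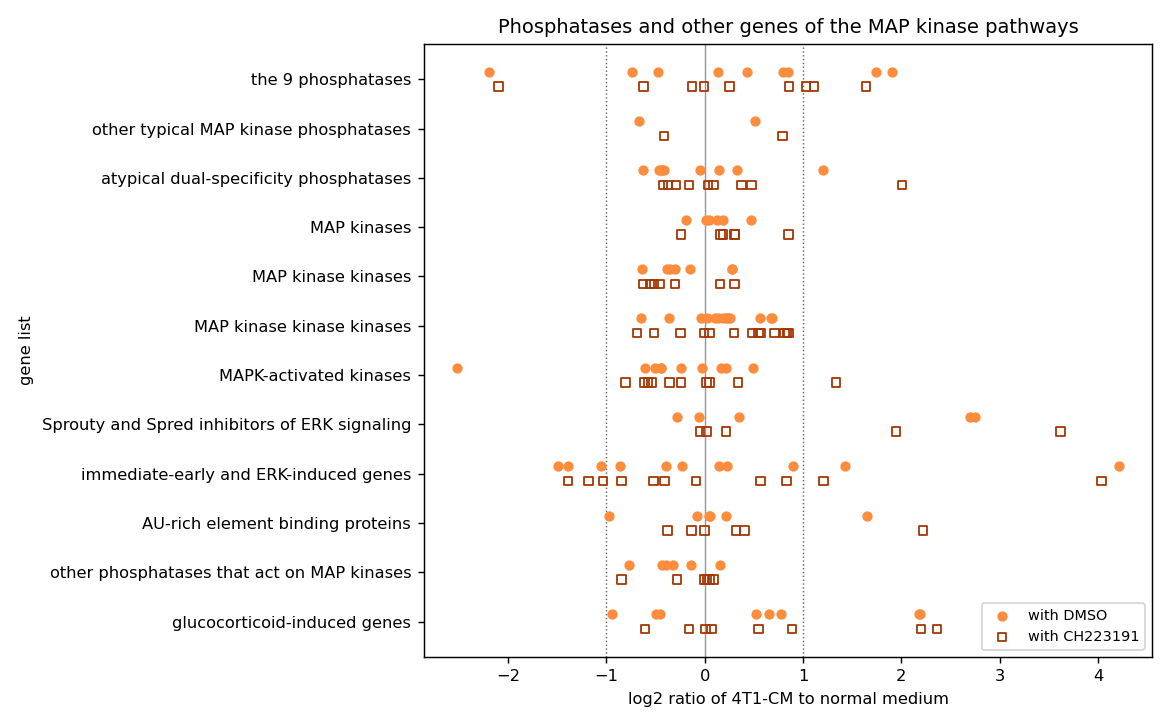
Log2 ratio of 4T1-CM to normal medium, in cultures given DMSO (filled circles) and CH223191 (open squares), 1 point per gene, with dotted lines at 2-fold. Shown are the 9 phosphatases and 11 lists of genes around the MAP kinases or tied to the control of Dusp1. Of the lists, 83 of the 85 genes kept of 98 listed are drawn, without those with 3 reads or fewer in a library. The phosphatases span from Dusp2 at -2.19 to Dusp10 at 1.90 without the inhibitor, and the MAP kinase kinases stay within 2-fold.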

How the data were processed

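The authors deposited integer counts of reads for each gene and each of the 4 libraries, not normalized. Total RNA was made into libraries with a NEBNext Ultra RNA kit. The submitters' processing notes name HISAT2 2.0.5 and DESeq2. The study's methods name featureCounts for alveolar macrophages only, and the strand setting is not given in the sources used here, so overlapping genes are uncertain. Gene coordinates matched GENCODE M21 (GRCm38, the C57BL/6 strain) for 53585 of 54495 genes.

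Genes below 10 reads in all libraries were dropped, TMM factors were computed (edgeR 4.0.16, R 4.3.3), and log2 ratios were taken with a prior count of 0.5. Intervals of ratios are exact Clopper-Pearson intervals of how reads split over a pair of libraries, and those of levels and of differences between ratios come from Poisson errors. With 1 library per condition no pair can be tested, and a difference of 2-fold or more is the call. Where a library has 3 reads or fewer of a gene (at most 0.189 CPM), its reads are given. The steps were tested on simulated data. Of repeated names, 103 entries carry their identifier. Sequence work and plots used Python 3.11.15, numpy 2.4.6, pandas 2.3.3, scipy 1.17.1 and matplotlib 3.10.9.

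The members and lists were chosen with earlier results of these data known. The text names all members. From each list it names up to 3 genes higher and 3 lower that changed 2-fold or more, in 1 direction, in both comparisons of a treatment and averaged 1 CPM or more, or else its 2 most abundant genes. It also names the 3 genes nearest in pattern to each of 3 members. A gene that this rule selects is not reported here. Dusp14, Mapk11, Mapkapk5, Rps6ka5, Ier5, Myc, Zfp36l2, Klf9, Tsc22d3, Cebpd, Fkbp5, Per1 and Errfi1 were named after their values were seen. The alternatives were DESeq2 1.42.0 size factors, no TMM factor (total counts), no filter, 10 reads or more required in every library, 5 as the prior count, scaling and background from protein-coding genes, the additive fit and transcript lengths.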

Additional observations from a re-analysis of the deposited data

Results flagged for a closer look

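For 2 members the point estimates had opposite signs in a pair of comparisons, and the difference was not tested in either case, since each condition has 1 library. Dusp5 had a log2 ratio of 4T1-CM to normal medium of 0.43 (0.11 to 0.76) without the inhibitor and of -0.13 (-0.45 to 0.19) with it. Its log2 ratio of CH223191 to vehicle, from the same 4 counts, was 0.31 (-0.02 to 0.65) without 4T1-CM and -0.24 (-0.55 to 0.06) with it. For Dusp3 the log2 ratio of CH223191 to vehicle was -0.097 (-0.15 to -0.04) without 4T1-CM and 0.022 (-0.05 to 0.09) with it.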

How the results depend on the processing

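No paired analysis was possible because each condition has 1 library. No ratio whose interval left out 0 changed sign. Those that did had intervals holding 0: with the additive fit Dusp5 was at 0.15 for 4T1-CM with the inhibitor and 0.03 for CH223191 in 4T1-CM, and Dusp3 at -0.04 for CH223191 in 4T1-CM, and Dusp7 for 4T1-CM with the inhibitor moved from just below to just above 0 with total counts and with the stricter filter. Of 45 member values (ratios and their differences), all stayed within their counting interval with size factors of DESeq2, with either other filter, with a prior count of 5 and with protein-coding genes alone, and 44 did with total counts, Dusp3 with CH223191 in normal medium being the exception at -0.15. The count of members at least 2-fold higher with CH223191 in normal medium, 1, was 0 with total counts and 0 with a prior count of 5, since Dusp10 lies just above 2-fold. The count of members at least 2-fold higher in both 4T1-CM comparisons, 2, was 1 with a prior count of 5, for the same reason. The additive fit, which gives 1 value for each treatment, moved 6 of 36 ratios out of their interval: Dusp7 to -0.24 for 4T1-CM and -0.41 for CH223191, Dusp3 to -0.04 and Dusp10 to 0.49 for CH223191. The filter moved the counts of all genes: 1122 genes were higher in both 4T1-CM comparisons, 2017 with no filter and 586 with at least 10 reads in every library. For CH223191, raising the prior count to 5 lowered the counts: in normal medium from 664 to 363 genes higher and from 454 to 168 lower, in 4T1-CM from 384 to 183 higher and from 359 to 139 lower, and in both media from 93 to 24 higher and from 66 to 9 lower. With protein-coding genes alone they were 364 and 258, 159 and 210, and 29 and 32. Lists rest on few reads for some genes: with that stricter filter 0 Sprouty, Spred or atypical phosphatase genes and 0 MAP kinases were higher in both. Depth limits Dusp2 and Dusp10 most, at 34 and 35 reads in their lowest library.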
